A study of Mus musculus with 48 samples.

Results

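A set of genes known from fetal liver, from liver cancer or from pregnancy were followed in mouse liver spheroids before and after engraftment in the eye: *Afp*, *H19*, *Igf2*, *Dlk1*, *Gpc3*, *Igf2bp3*, *Cd24a* and *Psg22*. They are 8 genes of the 46517 genes counted, and they were chosen by name, partly from measured values of these same samples, so their levels are given as a description with no test. RNA had been sequenced from 5 groups of wild-type albino mice, C57BL/6N by the labels although the study's methods name an albino B6/J strain: 3 livers, 3 hepatocyte-enriched preparations from collagenase-perfused liver, 2 samples of spheroids that such cells formed in culture, 5 explants and 3 naïve irises. An explant was the iris of a recipient eye with the spheroids engrafted on it, taken 2 months after transplantation into the anterior chamber, so each explant held host iris and graft together, and the ages of the animals were given only as a range over all mice of the study. In such mixed tissue, fewer cells of a type and less RNA per cell cannot be told apart. The spheroids, and the grafts before transplantation, had been cultured in medium with insulin-transferrin-selenium and dexamethasone, and the hepatocytes had been isolated in a medium that held both.

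Each sample was the sum of 3 technical libraries and held 2718518 to 6789648 counts assigned to genes, the explants being the deepest (at least 5449589) and the hepatocytes the shallowest (at most 3573075). The study describes its replicates as biological, but the labels do not say which animal a sample came from, so the spread between samples, which p-values measure, may be partly technical. Summed over 10 hepatocyte markers, the level was 11236 to 12891 TPM in livers (transcript abundance scaled for gene length and library size), 11992 to 15094 in hepatocytes and 11441 to 12970 in spheroids, and all 10 were detected in each of those groups. Irises held 1367 to 1633 TPM of the same markers and explants 4619 to 6388. The hepatocyte preparations kept other liver cells, with 49.2 to 152 TPM over 6 endothelial markers against 211 to 259 TPM in livers. The 10 iris and ciliary epithelium markers summed to 9048 to 9437 TPM in irises and 6550 to 8256 in explants. Solved from the authors' tables before and after their correction, the iris made up 82%, 68%, 81%, 72% and 59% of the RNA of explants 1, 2, 4, 5 and 6.

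Several of these genes are high in the fetal liver, fall after birth, and return in regenerating liver or in hepatocellular carcinoma. *Afp* codes for alpha-fetoprotein, the albumin of fetal plasma, and is repressed postnatally by factors that include *Zhx2* and *Zbtb20*. *H19* and *Igf2* are neighbours in 1 imprinted domain: *H19* is a long non-coding RNA read from the maternal copy, *Igf2* a growth factor read from the paternal copy. *Dlk1* is an imprinted transmembrane protein of the Notch ligand family that marks hepatoblasts, *Gpc3* a cell-surface heparan sulphate proteoglycan, *Igf2bp3* an RNA-binding protein of fetal tissues, and *Cd24a* a small anchored glycoprotein of progenitor, biliary and immune cells. *Psg22* belongs to the pregnancy-specific glycoproteins, secreted relatives of the *Ceacam* family that the placenta makes.

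The sequences shown are of a product of *H19*, whose level the results below turn on. *H19* carries a microRNA precursor in its exon, from which the pair miR-675 is cut (chromosome 7, minus strand; miR-675-5p from 142577112 to 142577133 and miR-675-3p from 142577078 to 142577099, RefSeq on GRCm38.p6). Capitals mark the seed, bases 2 to 8.
mmu-miR-675-5p: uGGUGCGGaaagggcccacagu
mmu-miR-675-3p: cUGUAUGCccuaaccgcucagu
The strands of the pair have different seeds. The hairpin lies wholly inside the *H19* exon, and reads over it were counted for both: *Mir675* had 6 to 42 counts in explants, 2 to 6 in irises and at most 7 in any other sample. These are reads of the long RNA over that stretch, since the libraries do not capture mature microRNAs.

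The members did not follow a common pattern over the groups. *Psg22* was read almost only in the cultured spheroids, *Afp* was highest there, *Cd24a* was high in spheroids and explants, *H19* was highest in explants, and *Igf2*, *Gpc3* and *Igf2bp3* were highest in the irises. *Dlk1* was near the limit of detection in all groups.

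**Figure D1:**
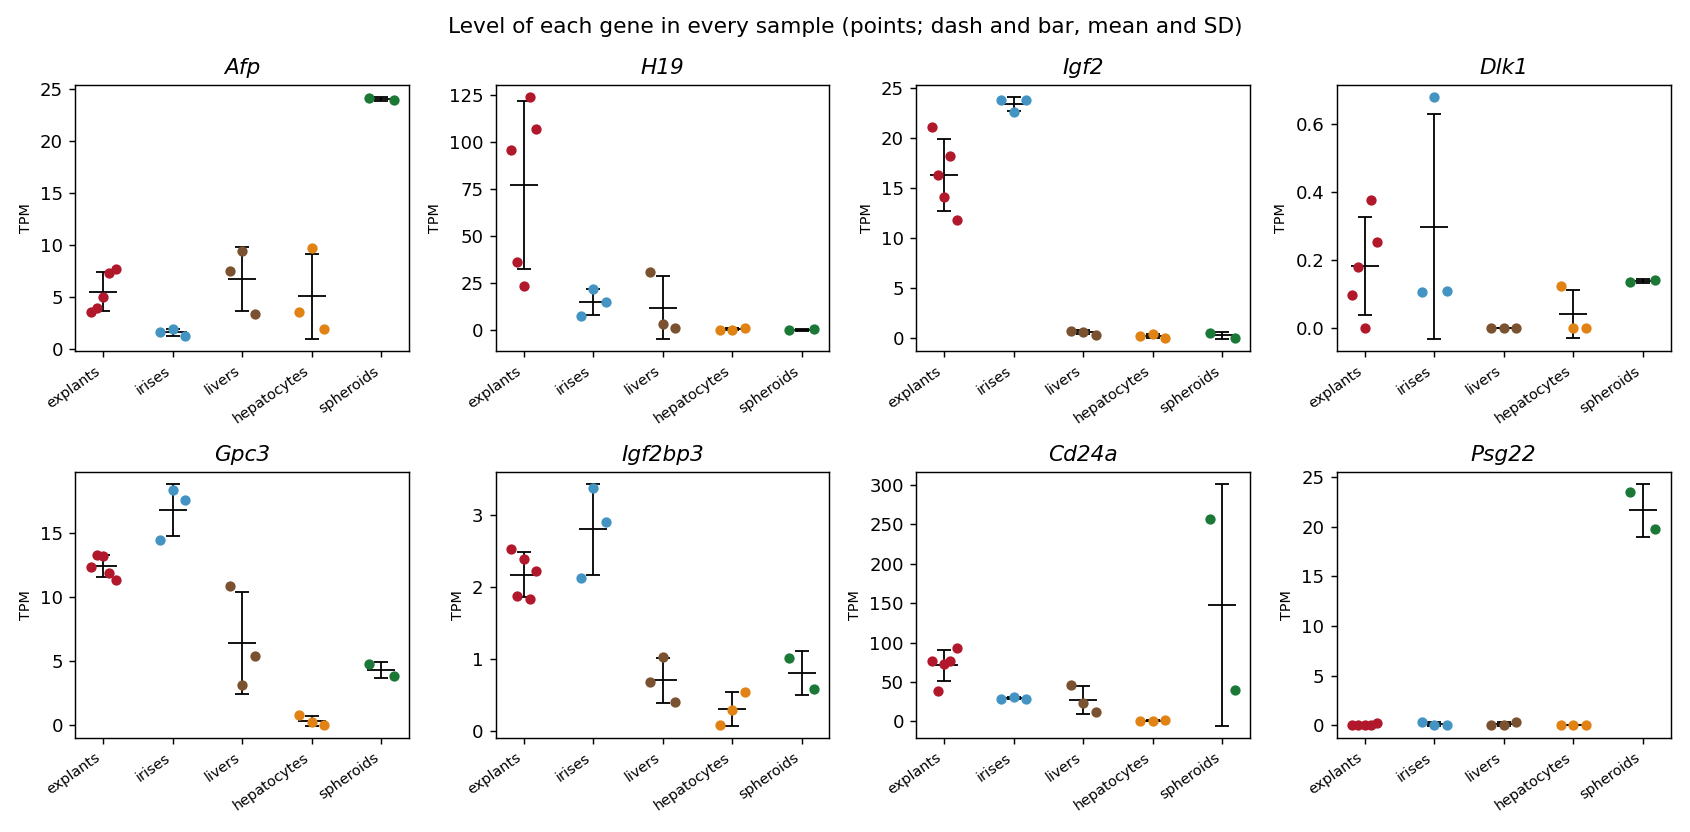
Level of the 8 genes in TPM (vertical axes, linear, a scale for each gene) in each of the 16 samples, with points for samples and a dash and bar for the group mean and SD. *Psg22* was at 23.6 and 19.8 TPM in spheroids and at most 0.352 TPM elsewhere, and *H19* at 23.7 to 124 TPM in explants.

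*Afp* (ENSMUSG00000054932, chr5:90490737-90508907, plus strand) was lowest in irises and highest in spheroids. Its levels were 1.6, 1.91 and 1.26 TPM in the 3 irises, 3.53, 9.67 and 1.87 TPM in hepatocytes, 7.45, 9.41 and 3.33 TPM in livers, and 24.2 and 23.9 TPM in the 2 spheroid samples. The explants had 3.56, 3.95, 4.93, 7.25 and 7.67 TPM before any correction. Hepatocytes and livers overlapped, while both spheroid samples lay above every other sample. As a reading of depth, these levels rested on 100 and 107 counts in spheroids, 22 to 57 in explants, 17 to 45 in livers, 7 to 41 in hepatocytes and 7 to 10 in irises.

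In spheroids the mean of *Afp*, 24 ± 0.181 TPM (SD, n = 2), was 4.78 times that of hepatocytes, 5.03 ± 4.11 TPM (SD, n = 3). This ratio rests largely on hepatocyte sample 2 and was 8.89 without it. The fitted log2 fold change from hepatocytes to spheroids was 1.93 with a standard error of 0.52. Over the same step *Alb*, the adult albumin gene beside *Afp* on chromosome 5, was at 3630 ± 426 TPM in hepatocytes. In spheroids *Alb* was at 3792 ± 129 TPM, and its log2 fold change of -0.27 did not pass the test (edgeR quasi-likelihood test, adjusted p = 0.496). Its counts were 10195 to 11088 in hepatocytes and 11300 and 11400 in spheroids. They were 9066 to 10735 even in explants, which were 59% to 82% iris. Duplicate alignments had been removed before counting, which can lower abundant genes, so a change of *Alb* may not show. Its level is therefore not read against the rise of *Afp*.

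The explants exceeded the irises in *Afp* 3.44-fold, 5.47 ± 1.89 TPM (SD, n = 5) against 1.59 ± 0.323 TPM (SD, n = 3), with no overlap. The fitted log2 fold change was 1.89 with a standard error of 0.38. After subtraction of the iris share, *Afp* was at 12.5, 8.96, 19.1, 21.8 and 16.4 TPM in explants 1, 2, 4, 5 and 6, a mean of 15.8 ± 5.13 TPM. The corrected mean lay 2.34 times above the livers, 6.73 ± 3.1 TPM (SD, n = 3), but explant 2 was below the highest liver and the groups overlapped. All 5 corrected values were below both spheroid samples with these iris fractions. With iris fractions refitted by non-negative least squares, explant 5 was at 24.5 TPM, above both spheroid samples.

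Set against the hepatocyte markers of the same sample, *Afp* was at 1.84 and 2.11 TPM per 1000 TPM of summed markers in spheroids. The same quantity was 0.65 to 1.51 in uncorrected explants, 0.793 to 1.17 in irises, 0.296 to 0.81 in livers and 0.124 to 0.783 in hepatocytes. Spheroids again lay above every other sample, and explants and irises overlapped on this scale. Duplicate alignments had been removed before counting, and the part of that step in this scale was not tested.

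The repressors of *Afp* were read in every group. *Zhx2* was at 19.3 ± 2.78 TPM in livers, 13 ± 2.73 in hepatocytes, 19.6 ± 5.19 in spheroids, 71.5 ± 2.17 in irises and 72 ± 13.8 in explants. *Zbtb20* was at 35.4 ± 4.15 TPM in livers, 11.4 ± 2.76 in hepatocytes and 9.84 ± 2.77 in spheroids. From livers to hepatocytes *Zbtb20* fell by 1.5 on the log2 scale (SE 0.18, edgeR adjusted p = 0.0161), a call lost without hepatocyte sample 2 or 3 or liver 2 (adjusted p = 0.0565 to 0.116), whereas the change from hepatocytes to spheroids, -0.55, did not pass (adjusted p = 0.102). *Zhx2* passed in neither of these steps (adjusted p = 0.228 and 0.477). In corrected explants against livers *Zhx2* was higher by 1.86 on the log2(TPM + 1) scale (SE 0.53, limma adjusted p = 0.0453). This call was lost when any liver, or explant 1, 4 or 5, was left out (adjusted p = 0.0509 to 0.149). The corrected level of *Zhx2*, 32.8 to 170 TPM, rests on a subtraction between near-equal explant and iris values. In the same comparison *Zbtb20* differed by -2.58 without passing (adjusted p = 0.0647).

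*H19* (ENSMUSG00000000031, chr7:142575529-142578143, minus strand) was highest in explants and almost unread in hepatocytes and spheroids. Explants 1, 2, 4, 5 and 6 had 95.7, 36.2, 23.7, 124 and 107 TPM, and the 3 irises 7.84, 22.2 and 15.1 TPM. Livers 1, 2 and 3 had 31.1, 3.56 and 1.11 TPM. Every explant was above every iris, and explants 1, 5 and 6 lay well above explants 2 and 4.

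In hepatocytes *H19* had 1, 1 and 3 counts, and in spheroids 0 and 2 counts. The ratio of count rates between spheroids and hepatocytes was 0.564 with a 95% interval of 0.0537 to 3.45 (exact, counting error only), so no difference between them was detectable at this depth. Explants held 1918 counts of *H19* in all, spread over the technical libraries: explant 5, the highest, had 246, 204 and 237 counts in its 3 libraries.

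The mean of *H19* in explants, 77.3 ± 44.6 TPM (SD, n = 5), was 5.14 times that of irises, 15 ± 7.17 TPM (SD, n = 3), with a fitted log2 fold change of 2.48 and a standard error of 0.61. The iris share alone would have given 8.87 to 12.3 TPM, and the explants exceeded it by 83.4, 26, 11.5, 113 and 98.2 TPM. Corrected for the iris, *H19* was at 463, 81.3, 60.4, 404 and 239 TPM, a mean of 250 ± 183 TPM. The lowest corrected explant was above the highest liver. The ratio of means to livers, 11.9 ± 16.7 TPM (SD, n = 3), was 20.9, and 107 without liver 1.

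**Figure D2:**
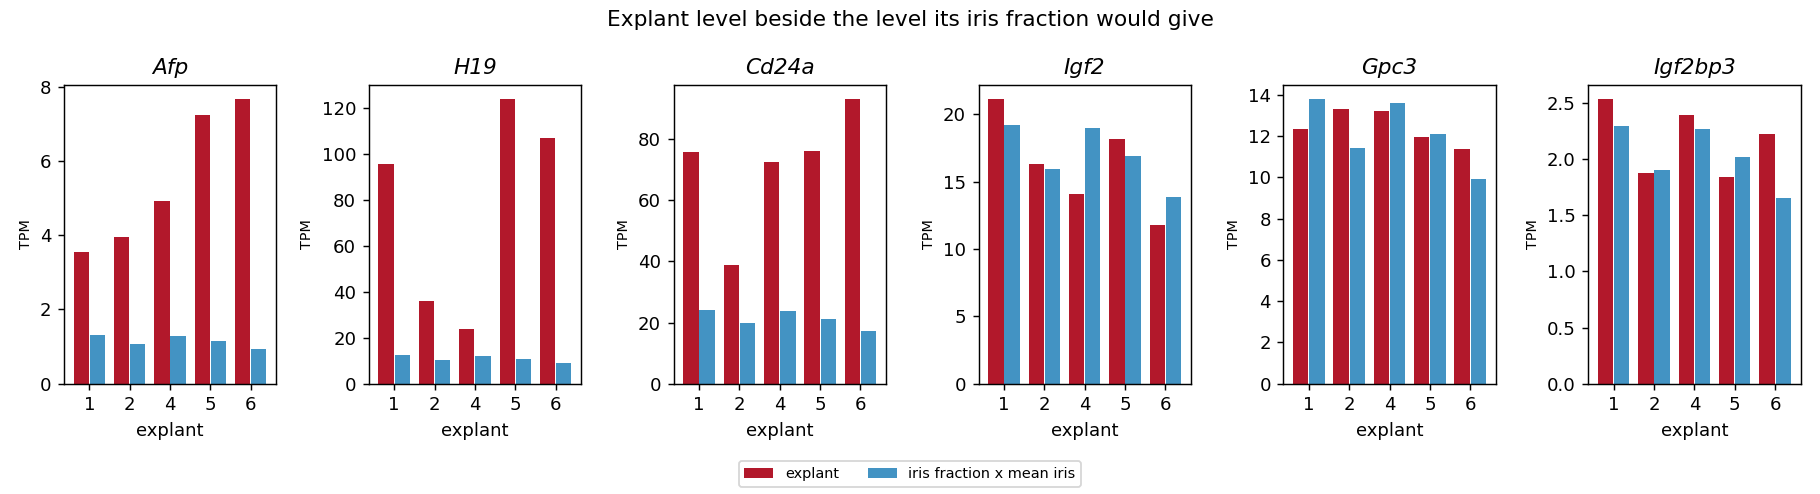
TPM (vertical axes, linear from 0) of 6 genes in explants 1, 2, 4, 5 and 6 (red bars) beside the level that the iris fraction of the explant times the mean iris level would give (blue bars). For *H19*, *Afp* and *Cd24a* every red bar exceeds its blue bar, by 11.5 to 113 TPM for *H19*, while for *Igf2* and *Gpc3* the differences have both signs.

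Markers of other cell types varied among the same samples. The 8 macrophage and Kupffer cell markers, all detected in every group, summed to 315, 644, 251, 400 and 806 TPM in explants 1, 2, 4, 5 and 6, and to 183 to 194 TPM in irises. The gene with the next most similar pattern to *H19* over the 16 samples, apart from a transcript inside it, was *Ms4a7*, a gene of macrophages (Pearson r = 0.962 on log2(TPM + 1)). Explant 6 was high in both and explant 4 the lowest explant in both, whereas explant 2 had the second highest macrophage sum with little *H19*, and explant 1 a lower sum with high *H19*. All 5 explants were above every iris in macrophage markers. Liver 1, which had most of the liver *H19*, also had the most fibroblast and stellate markers, 1063 TPM over 8 genes against 407 and 471 in livers 2 and 3. Most of each sum was *Dcn*, 1 of the 8, at 919, 367 and 430 TPM in livers 1, 2 and 3. Liver 1 was also the highest liver in *Gpc3* and *Cd24a*. The part of these cells in *H19* was not tested.

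*Igf2* (ENSMUSG00000048583, chr7:142650766-142666816, minus strand) did not accompany *H19*. Its levels were 23.8, 22.7 and 23.8 TPM in irises and 21.1, 16.3, 14.1, 18.2 and 11.8 TPM in explants. In livers, hepatocytes and spheroids it was at most 0.73 TPM, on 6 counts or fewer a sample. Every explant was below every iris, and the ratio of means was 0.695 (16.3 ± 3.61 against 23.4 ± 0.676 TPM).

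The iris share would have given 13.8 to 19.2 TPM of *Igf2* in the explants. Explants 1, 2 and 5 exceeded it by 1.9, 0.334 and 1.31 TPM, and explants 4 and 6 differed from it by -4.91 and -2.05 TPM. With negative values set to 0, the corrected level was 10.5, 1.04, 0, 4.69 and 0 TPM, which overlapped the livers. Exons of *Igf2* share 98 bases with an antisense transcript, *Igf2os*, and the counting did not use strand, but *Igf2os* had at most 3 counts in any sample.

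The *H19* and *Igf2* levels can be read side by side as neighbours. In explants 1, 5 and 6 *H19* was 4.53 to 9.09 times *Igf2* per length, in explants 2 and 4 it was 1.68 to 2.23 times, and in the irises 0.329 to 0.979 times. No iris had more *H19* than *Igf2*, and every explant had.

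*Gpc3* (ENSMUSG00000055653, chrX:52272426-52613950, minus strand) was at 14.5, 18.4 and 17.6 TPM in irises and at 12.3, 13.3, 13.2, 11.9 and 11.4 TPM in explants, which all lay below the irises. Livers 1, 2 and 3 had 10.9, 3.14 and 5.39 TPM, hepatocytes 0.781, 0.295 and 0 TPM, and spheroids 4.8 and 3.89 TPM. It was nearly lost from the hepatocyte preparations, on 3, 1 and 0 counts, and was read again in spheroids, on 17 and 13 counts.

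From hepatocytes to spheroids *Gpc3* was 12.1 times higher in mean TPM, 4.35 ± 0.647 (SD, n = 2) against 0.359 ± 0.394 (SD, n = 3), and 29.4 times without hepatocyte sample 1. The count rates differed 10.6-fold with a 95% interval of 3.73 to 41.3 (exact, counting error only). From livers to hepatocytes its mean TPM was 18 times lower, or 43.8 times without hepatocyte sample 1 and 11.9 times without liver 1. Spheroids lay within the range of the livers. In explants the level exceeded the iris share in samples 2 and 6, by 1.88 and 1.45 TPM, and fell below it in samples 1, 4 and 5.

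The genes nearest to *Gpc3* in pattern were *Dcn*, a proteoglycan of connective tissue cells, *Ccser2* and *Tmsb4x* (r = 0.976, 0.974 and 0.967 over the 16 samples, as a description, since the samples share groups, depth and iris content). *Dcn* was at 1621 ± 55.3 TPM in irises, 572 ± 302 in livers, 124 ± 24.6 in hepatocytes and 283 ± 20.7 in spheroids. Over 8 fibroblast and stellate markers, of which *Dcn* is 1, the sum was 114 to 163 TPM in hepatocytes and 282 and 310 TPM in spheroids. *Dcn* alone was 107 to 153 TPM in hepatocytes and 269 and 298 TPM in spheroids, so the sum mostly repeats *Dcn*. The part of fibroblast and stellate cells in *Gpc3* was not tested.

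*Igf2bp3* (ENSMUSG00000029814, chr6:49085223-49214957, minus strand) was low everywhere. It was at 2.13, 3.38 and 2.9 TPM in irises, 1.84 to 2.54 TPM in explants, 0.404 to 1.04 TPM in livers, 0.0858 to 0.551 TPM in hepatocytes, and 1.02 and 0.592 TPM in spheroids. Explants and irises overlapped, as did livers and spheroids. Of its exonic bases, 1529 (18.7%) are also exon of *Malsu1* on the other strand, and reads there counted for both genes. *Malsu1* had 117 to 207 counts a sample against 1 to 43 for *Igf2bp3*, so an unknown share of the *Igf2bp3* counts may belong to it.

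Its relatives differed from each other in pattern. *Igf2bp1* was at 12.7 ± 0.759 TPM in irises, 9.5 ± 1.59 in explants and at most 0.416 TPM in any liver, hepatocyte or spheroid sample. *Igf2bp2* had its highest mean in spheroids, at 1.47 and 3.62 TPM, which overlapped irises at 1.8 ± 0.626 TPM and explants at 1.48 ± 0.663 TPM, and its log2 difference of 2.17 from hepatocytes did not pass (edgeR adjusted p = 0.0995).

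*Dlk1* (ENSMUSG00000040856, chr12:109452823-109463336, plus strand) had 1, 2, 0, 5 and 3 counts in explants, 1, 6 and 1 in irises, 1, 0 and 0 in hepatocytes, 1 and 1 in spheroids and none in the 3 livers. It never exceeded 0.68 TPM. The 0 of 11089105 liver counts allows up to 3 counts. No group stood apart at this depth. *Meg3*, the non-coding RNA of the same imprinted domain, was at 3.39 ± 2.24 TPM in irises, 1.95 ± 0.772 in explants and at most 0.193 TPM in livers and spheroids. In hepatocytes it was at 0, 2.06 and 0.0994 TPM, hepatocyte sample 2 reaching the range of explants and irises. It did not pass between explants and irises (edgeR adjusted p = 0.313).

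*Cd24a* (ENSMUSG00000047139, chr10:43579169-43584262, plus strand) was near 0 in hepatocytes and higher in cultured spheroids and in explants, which hold graft and iris. Spheroids and livers overlapped. Hepatocytes had 0.386, 0.438 and 1.49 TPM, on 1, 1 and 3 counts. The 2 spheroid samples had 257 and 39.1 TPM, on 612 and 88 counts. Explants 1, 2, 4, 5 and 6 had 76, 38.9, 72.4, 76.1 and 93.1 TPM, the irises 28.5, 30.4 and 28.8 TPM, and livers 46.1, 22.5 and 12 TPM.

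Spheroids exceeded hepatocytes 192-fold in mean *Cd24a*. The ratio was 50.7 without spheroid sample 1, 333 without spheroid sample 2 and 359 without hepatocyte sample 3. The fitted log2 fold change was 7.17 with a standard error of 0.94. The distance between the 2 spheroid samples was present in every technical library, with 233, 174 and 205 counts in one and 33, 20 and 35 in the other. *Spp1*, a gene of biliary and activated cells, differed in the same way, at 350 and 92.3 TPM. From livers to hepatocytes the mean of *Cd24a* was 34.9 times lower, with no overlap, and 65.2 times without hepatocyte sample 3 or 22.4 times without liver 1.

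The explants exceeded the irises 2.44-fold in *Cd24a*, 71.3 ± 19.8 TPM (SD, n = 5) against 29.2 ± 1.07 TPM (SD, n = 3), with no overlap and a fitted log2 fold change of 1.39 with a standard error of 0.25. The iris share would have given 17.2 to 24 TPM, and the excess was 52, 19.1, 48.7, 55 and 75.8 TPM. After correction the levels were 289, 59.6, 256, 197 and 185 TPM, all above the livers, with a ratio of means of 7.34, or 11.4 without liver 1. They overlapped the 2 spheroid samples. Over 8 lymphocyte markers the sum was 20.8, 72.8, 8.34, 13.4 and 86.4 TPM in explants 1, 2, 4, 5 and 6. In irises it was 4.11 to 9.64 TPM. The part of immune or biliary cells in *Cd24a* was not tested.

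Counted over the members, 3 of 8 (*Afp*, *H19* and *Cd24a*) were higher in every explant than in every iris and 2 (*Igf2* and *Gpc3*) lower in every one. Among all 16764 genes tested there, 10.9% were higher without overlap and 13.9% lower. Between corrected explants and livers, 2 of 8 (*H19* and *Cd24a*) lay wholly above and none below, where 19.8% and 8.74% of 21002 genes did. Between spheroids and hepatocytes 5 of 8 lay wholly above (*Afp*, *Gpc3*, *Igf2bp3*, *Cd24a* and *Psg22*) and none below, where 44.2% and 15.8% of 12247 genes did. Between hepatocytes and livers none lay above and 2 (*Gpc3* and *Cd24a*) below, where 7.35% and 23.8% of 12236 genes did. The members were chosen partly from these levels, and nothing is read from their counts.

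*Psg22* (ENSMUSG00000044903, chr7:18718090-18727248, plus strand) had 58 and 46 counts in the 2 spheroid samples, 23.6 and 19.8 TPM. In the other 14 samples it had 3 counts in all: 1 in explant 6, 1 in iris 1 and 1 in liver 3. Each of the 6 technical libraries of spheroids had counts, 26, 17 and 15 in one sample and 10, 19 and 17 in the other. Against the hepatocytes, which had 0 of 9446341 counts, *Psg22* was at least 48.9-fold higher in spheroids, with the hepatocytes taken at 3 counts over the group. It was not read in explants beyond 1 count, although the grafts were made from such spheroids.

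The rest of the family did not follow *Psg22*. Of 25 other *Psg* and *Ceacam* genes counted, 16 had no count in spheroids and 2 had more than 10, *Psg16* and *Ceacam1*. *Psg16* was highest in irises, at 16.1 ± 1.45 TPM, and was at 4.69 and 4.85 TPM in spheroids and 3.04 to 3.28 TPM in hepatocytes. *Psg23* was highest in livers, at 5.04 ± 0.516 TPM, and at 1.11 and 1.74 TPM in spheroids. *Ceacam1*, a bile canalicular adhesion protein of hepatocytes, was at 91.8 ± 15.2 TPM in spheroids and 100.4 ± 4.67 TPM in hepatocytes. The genes of this family are near copies of each other, and reads shared between copies could be placed on the wrong one.

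Among 16 trophoblast markers, *Ctsj*, a placental cathepsin, was read in the same samples as *Psg22*. It had 35 and 21 counts in spheroids, 20.9 and 13.2 TPM, and 1 count in the other 14 samples. Against the hepatocytes, which had no count, it was at least 26.3-fold higher, with the hepatocytes taken at 3 counts over the group. It was the only 1 of the 16 that passed the filter in that comparison, through the spheroids alone, so its call had to follow and is not read as a test, and 9 of the 16 had no count in spheroids. *Peg10*, an imprinted retrotransposon-derived gene of placenta, had 9 and 26 counts in spheroids and was not tested there.

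**Figure D3:**
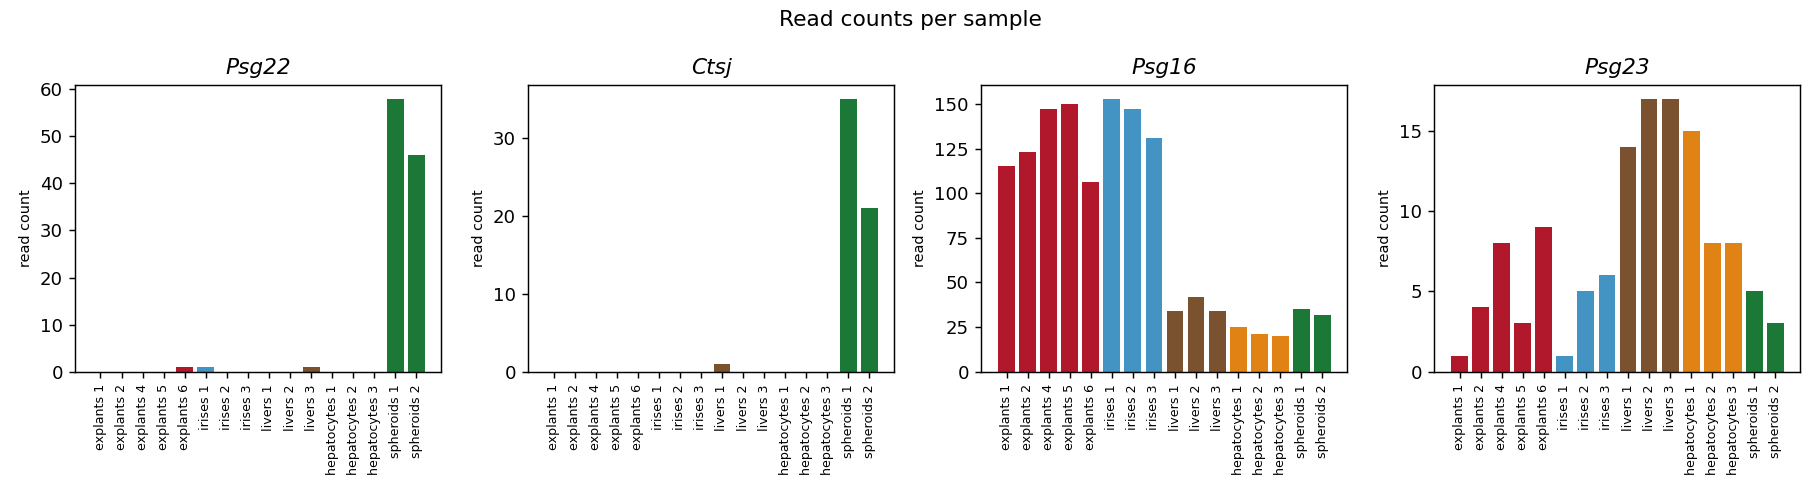
Read counts (vertical axes, linear from 0) of *Psg22*, *Ctsj*, *Psg16* and *Psg23* in each of the 16 samples, coloured by group. *Psg22* and *Ctsj* stand at 46 to 58 and 21 to 35 counts in the 2 spheroid samples and at 0 or 1 in the others, whereas *Psg16* and *Psg23* are read in all groups.

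The patterns most like each member were otherwise as follows. For *Afp* they were *Tbc1d8b*, *Mrps17* and *Shtn1* (r = 0.917, 0.901 and 0.878). For *Igf2* they were *Efs*, *Sfxn4* and *Kif1a* (r = 0.997, 0.996 and 0.996), for *Igf2bp3* *Phf21a*, *Zfp329* and *Magi3* (r = 0.975, 0.974 and 0.974), and for *Cd24a* *Il3ra*, *Tagln2* and *Enc1* (r = 0.957, 0.953 and 0.948). For *H19* the first was *Gm27483* (r = 0.977), whose 71 bases lie inside the *H19* exon, and *Dock11* followed *Ms4a7* (r = 0.958). For *Psg22* the first 3 were *Gm13552*, *Gm29282* and *Gm13653* (r = 0.994 each), each with 1 count in either spheroid sample and none elsewhere. These are descriptions over 16 samples that share groups, iris content and depth.

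Genes of the members' pathways were then tested in 9 lists of 166 genes that hold no member, first in explants against irises. A gene was called at an adjusted p under 0.05 and a log2 fold change over 1 in either direction. Of 109 listed genes tested, 23 were called higher in explants and 0 lower by edgeR. DESeq2 and limma-voom also called 0 lower, and 11 were lower at an unadjusted p under 0.05. Without iris 3 the 23 became 15. Over all genes 6.16% were called higher and 0.316% lower (1032 and 53 of 16764), and 4626 had an unadjusted p under 0.05. Of the 23, 10 were in the list of *Afp* regulators and the albumin family, a list of hepatocyte factors, where 10 of 15 tested were higher, with a median log2 fold change of 3.04 beside 0.01 over all genes.

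The genes of this list that rose in explants over irises included the liver transcription factor *Foxa3* (5.38, SE 0.59) and *Afm* (4.59, SE 0.58), which codes for the plasma protein afamin, with the factors *Foxa2* and *Hnf4a* (log2 fold changes). Their edgeR adjusted p-values were 6.29e-04, 0.00135, 0.00454 and 6.46e-04. *Alb* rose by 1.44 (SE 0.11, adjusted p = 1.46e-04). Biliary and progenitor markers had 6 of 16 higher, with *Krt23*, a keratin, at 4.46 (SE 0.44, adjusted p = 4.06e-04) and the adhesion molecule *Epcam* at 2.69 (SE 0.5, adjusted p = 0.00935). Also higher were *Cldn4*, *Krt8*, *Cldn7* and *Cdh1*. *Epcam* was not called by limma-voom (adjusted p = 0.0513) or without iris 1 or iris 3 (adjusted p = 0.0511 and 0.0552). *Cldn4* and *Cldn7* were not called by limma-voom (adjusted p = 0.123 and 0.0571) or without any 1 iris (adjusted p = 0.055 to 0.155).

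Among 23 imprinted genes tested between explants and irises, 2 rose, the amino acid transporter *Slc38a4* (3.8, SE 0.51, edgeR adjusted p = 0.0018) and *Slc22a18* (2.25, SE 0.37, adjusted p = 0.00506). Both are far higher in livers, at 831 and 401 TPM, than in irises, at 11.6 and 28.1 TPM. The IGF axis had 2 of 19 higher, the liver-made binding proteins *Igfbp1* (3.78) and *Igfals* (3.19), adjusted p = 0.00171 and 0.00935 by edgeR, the call of *Igfals* being lost without iris 1 or iris 3 (adjusted p = 0.0546 to 0.0578). Receptors did not pass: *Igf1r* differed by -0.1 (adjusted p = 0.773), and *Igf2r*, which clears IGF2, by 0.3, under the fold limit. Glypicans and syndecans, the family of *Gpc3*, had 0 of 12 called by edgeR, DESeq2 or limma-voom (3 higher and 1 lower at an unadjusted p under 0.05), and the Notch list had 1 of 15 called by edgeR, *Dll4*, and 0 by DESeq2 (adjusted p = 0.0579) or limma-voom (adjusted p = 0.0995). Left out 1 at a time, any sample but explant 4 ended the call of *Dll4* (adjusted p = 0.0675 to 0.177).

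**Figure D4:**
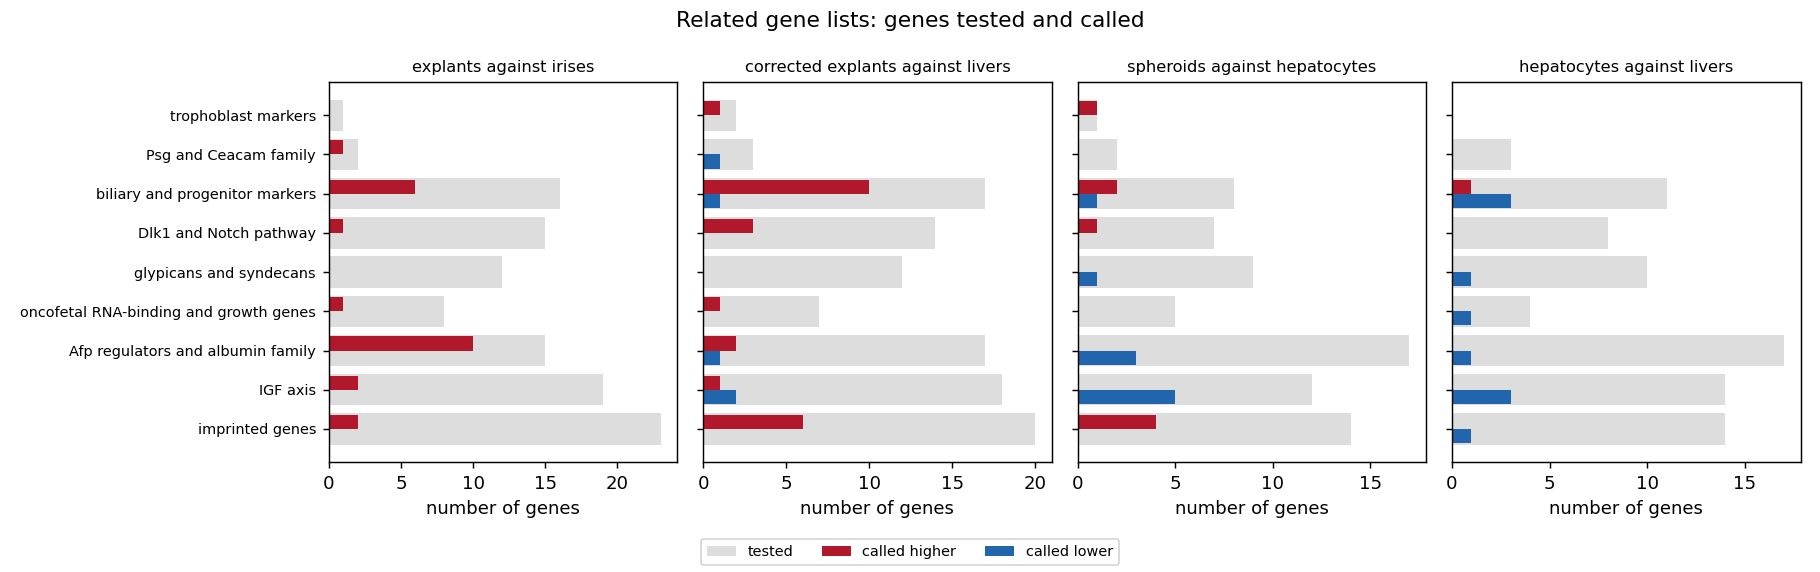
Number of genes (horizontal axes, linear from 0) tested (grey) and called higher (red) or lower (blue) in each of the 9 related lists for the 4 comparisons. In explants against irises 10 of 15 *Afp* regulators were called higher, and in corrected explants against livers 10 of 17 biliary and progenitor markers were.

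In corrected explants against livers the background was shifted: the median log2 difference over all 21002 genes tested was 0.61, with 11.8% of genes called higher and 3.01% lower. Of 108 listed genes 23 were called higher and 5 lower, with a median of 0.81. The biliary and progenitor list had 10 of 17 higher and 1 lower, with a median of 1.76. *Cldn4* (4.03), *Krt23* (3.86), *Prom1* (3.65) and *Cldn7* (3.32) led it, with limma adjusted p-values of 0.0119, 0.0044, 0.0126 and 0.00736. *Onecut1*, a hepatocyte and hepatoblast factor, was lower (log2 difference -2.47, adjusted p = 0.0249). Without liver 2 or liver 3 the listed genes called dropped from 28 to 12 and 10.

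Imprinted genes had 6 of 20 higher and 0 lower by limma in corrected explants than in livers (8 and 1 at an unadjusted p under 0.05), with a median of 0.85. *Mest* and *Grb10*, which are growth-related genes of fetal tissues, differed by 4.56 (SE 0.51) and 3.88 (SE 0.42), with limma adjusted p-values of 0.00115 and 9.93e-04. *Mest* was at 139 ± 23.2 TPM in uncorrected explants, 133 ± 5.05 in irises and 5.51 ± 0.29 in livers, so its corrected level rests on a subtraction between near-equal values. *Grb10* was at 30.9 ± 3.54, 24.8 ± 2.35 and 2.41 ± 0.769 TPM in the same groups. *Peg13*, *Peg10*, *Nnat* and *Phlda2* were also called. In the IGF axis *Igfbp5* was higher (3.52) and *Igfals* (-1.5) and *Ghr* (-1.31) lower, with limma adjusted p-values of 0.00263, 0.0115 and 0.0273. None of these was called with the authors' own corrected values (limma adjusted p = 0.0519 to 0.0821). *Ghr* was also not called without liver 2 or liver 3, nor *Igfals* without liver 3. *Dll1*, *Heyl* and *Jag1* of the Notch list were called higher, as was *Ccnd2*, and *Psg16* lower (-2.12). *Ccnd2* was at 1.59 and not called with the authors' own corrected values (limma adjusted p = 0.537). With no iris subtraction *Psg16* was higher in explants than in livers, by 1.14 (adjusted p = 1.73e-04), and its call was lost without any 1 liver (adjusted p = 0.0923 to 0.127). *Dll1* and *Jag1* were also not called without any 1 liver, nor *Heyl* without liver 2 or liver 3. Of the 21 genes named in this comparison, 14 lost their call on leaving out some 1 sample.

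From hepatocytes to spheroids 8 of 74 listed genes were called higher and 10 lower, where 8.13% and 9.11% of 12247 genes were (996 and 1116). With scaling by library size alone the split over all genes was 1531 and 808, with a median log2 fold change of 0.27 over all genes. The listed genes were then 12 higher and 9 lower. In the IGF axis 5 of 12 were called lower and 0 higher by edgeR, DESeq2 and limma-voom alike (8 and 1 at an unadjusted p under 0.05), with a median of -1.02 beside 0.01 over all genes. *Igfbp2* fell by 6.71 on the log2 scale (SE 0.46), *Igfals* fell by 4.88 (SE 0.25) and *Igf1* fell by 3.63 (SE 0.47), with edgeR adjusted p-values of 1.53e-04, 4.91e-05 and 0.00197. *Irs2* and *Ghr*, the growth hormone receptor, also fell, the call of *Irs2* being lost without either spheroid sample (adjusted p = 0.0578 to 0.0828). *Igf1* itself was at 232 ± 14.9 TPM in hepatocytes and at 12.8 and 33.1 TPM in spheroids.

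Of 14 imprinted genes tested, 4 rose from hepatocytes to spheroids and 0 fell by edgeR, DESeq2 or limma-voom (1 was lower at an unadjusted p under 0.05): *Grb10* (2.48, SE 0.36), *Peg3* (2.3, SE 0.36), *Peg13* (1.4, SE 0.3) and *Mest* (1.29, SE 0.31), with edgeR adjusted p-values of 0.00283, 0.00402, 0.0134 and 0.0209. The call of *Mest* was lost without hepatocyte sample 1 or 3 or spheroid sample 2 (adjusted p = 0.0516 to 0.108), and that of *Peg13* without spheroid sample 2 (adjusted p = 0.0559). In the list of *Afp* regulators 0 of 17 rose by edgeR, DESeq2 or limma-voom (1 at an unadjusted p under 0.05) and 3 fell, among them *Cebpa* (-2.7) and *Afm* (-1.46), with adjusted p-values of 6.68e-04 and 0.0034. *Notum*, of the glypican and syndecan list, fell from 255 counts in hepatocytes to 3 in spheroids. Its count rate was 60.2 times lower, with a 95% interval of 20.4 to 294 (exact, counting error only). It passed the filter through the hepatocytes alone, so its call had to follow and is not read as a test. Among biliary markers *Anxa2* rose by 3.44 and *Spp1* by 2.06, and *Onecut1* fell by 3.06. Without spheroid sample 1 *Spp1* was at 0.97 and not called (adjusted p = 0.0563). *Notch1* was called by edgeR at 1.3, but not by DESeq2 (adjusted p = 0.0518) or limma-voom (adjusted p = 0.0588), nor without any 1 hepatocyte sample or without spheroid sample 1, where it was 0.75 (adjusted p = 0.295).

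From livers to hepatocytes 1 of 80 listed genes was called higher and 10 lower, where 0.409% and 2.31% of 12236 genes were. *Krt19* and *Epcam*, both markers of bile duct cells, fell from 67 to 1 and from 115 to 3 counts. Their count rates were 57.1 and 32.7 times lower, with 95% intervals of 9.9 to 2288 and 10.9 to 161 (exact, counting error only). Both passed the filter through the livers alone, so their calls had to follow and are not read as a test. *Spp1* also fell, with a log2 fold change of -2.99 (SE 0.27, edgeR adjusted p = 0.00445). *Igfbp3*, *Igfbp7* and *Igfbp6*, which non-parenchymal cells make, were lower, with log2 fold changes of -4.12, -2.37 and -3.03 and adjusted p-values of 0.0342, 0.0299 and 0.0471. *Sdc3*, *Dcn*, *Ccnd2* and *Zbtb20* also fell, and *Onecut1* rose by 1.48 (SE 0.24, adjusted p = 0.031). The calls rested on few samples: without hepatocyte sample 2, hepatocyte sample 3 or liver 2, 1 listed gene was called in place of 11. Over all genes, the 50 called higher and 283 lower became 8 and 7, 4 and 4, and 5 and 15 in these fits. The call of *Igfbp6* was lost without any 1 sample (edgeR adjusted p = 0.052 to 0.159). The called genes named here kept the direction of their change in every alternative. *Cd24a* and *Gpc3* were also lower in this step. Of the 11 biliary and progenitor markers tested in it, 3 were called lower and 1, *Onecut1*, higher. The part of bile duct cells in *Cd24a* and *Gpc3* was not tested.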

How the data were processed

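The deposited files were per-gene read counts of 48 libraries, a table of counts summed over technical libraries, a TPM table and a TPM table corrected for iris. Per the labels and headers, the authors prepared Smart-seq3 libraries, aligned with TopHat2 to mm10 and counted exons with featureCounts 1.4.6-p5 (reads overlapping several genes given to each, strand not used) on alignments from which duplicates had been removed, which can lower abundant genes. The study lists a deduplication tool for molecular identifiers, and whether the second duplicate removal that the file headers name also used them is not given in the sources used here. The 3 libraries of each sample were summed, and equalled the authors' summed counts in 100% of cells. The deposited TPM were recomputed from counts and lengths with a largest difference of 5.46e-12. In the authors' corrected table, unit score here because its columns have no common total, the deposited values of explants 1, 2, 5 and 6 follow the published subtraction, whereas those of explant 4 follow a form in which the iris mean was reduced by the fraction in place of multiplied by it. The subtraction was therefore recomputed for all 5, with values under 0 set to 0. A table of library counts before summing was not used, and 92 spike-in controls (418 counts in all) were left out.

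Members and lists were chosen with earlier results of these data known. Named genes were all members, in each list the called genes with up to 5 largest changes, regulators and relatives, and the 3 genes most like each member among 24221 at 1 TPM or more in at least 2 samples. Some genes this rule names are not reported here, but remain in the counts. The correlations between genes ran over 16 samples. Counts were tested with edgeR 4.0.16 (quasi-likelihood, TMM, filterByExpr) in fits of the 2 groups compared, and corrected explants against livers with limma 3.58.1 on log2(TPM + 1) for genes with a mean of at least 1 TPM, where folds of low genes are understated. P-values were adjusted by Benjamini-Hochberg over all genes tested. Of the members, 6, 5, 4 and 3 passed the filter in explants against irises, corrected explants against livers, spheroids against hepatocytes and hepatocytes against livers. A member that passed through 1 high group had to differ. Standard errors in edgeR are the fold change over the square root of F. The fits were first tested on simulated counts. Floors are 3 counts and intervals 95% exact, both for counting error only. Alternatives were DESeq2 1.42.0, limma-voom, other scalings, filters and iris fractions, a replicate block and leaving out each sample. Replicate numbers are shared between groups, but the labels do not say that they pair samples, and they were not taken to. Same-numbered samples deviated together with correlations of -0.108 to 0.135, and of 0.102 and 0.135 in spheroids against hepatocytes. With so few samples in a group, these correlations cannot exclude pairing. They were not computed for corrected explants against livers.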

Additional observations from a re-analysis of the deposited data

How the results depend on the processing

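The number of related genes called stayed within 1.5 times the reported one except as follows. In explants against irises the 23 became 14 with limma-voom, 14 with at least 10 counts in every sample and 35 with no fold limit, and 15 to 24 when 1 sample was left out. In corrected explants against livers the 28 became 69 with no iris subtraction and 13 with the deposited corrected columns, and 10 to 38 when 1 sample was left out. With the replicate block it was 0, and no gene of all those tested was called, in a fit with 1 residual degree of freedom. In spheroids against hepatocytes the 18 became 32 with no filter, and 16 to 19 on leaving out a sample. In hepatocytes against livers the 11 became 3 with limma-voom, 26 with no filter, 7 with at least 10 counts in every sample and 23 in 1 fit of all 5 groups, and 1 to 12 on leaving out a sample. The replicate block left the other 3 counts within 1.5 times. The cause of these changes was not tested beyond the samples or genes each setting drops. *Psg16* in corrected explants against livers reversed to 1.14 on the log2 scale with no iris subtraction. Of the named genes called, 8 of 17 in explants against irises, 0 of 21 in corrected explants against livers, 12 of 18 in spheroids against hepatocytes and 1 of 11 in hepatocytes against livers were called in every alternative that tested them.

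Ratios of member means moved by more than the spread between samples as follows: *H19* in corrected explants to livers was 67.2 as a ratio of medians, and 14.4 to 107 with 1 sample left out. *Afp* in spheroids to hepatocytes ranged from 3.64 to 8.89, *Gpc3* from 8.08 to 29.4, and *H19* in hepatocytes to livers from 0.0264 to 0.252, with 1 sample left out. *Dlk1*, and *H19* and *Igf2* in hepatocytes and spheroids, were limited by depth.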
